A study of Rattus norvegicus with 14 samples.

Results

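Bisphenol A (BPA) was given at 2 doses together with testosterone, and both doses as one are set here against untreated control in the lateral prostate of the rat. The samples were chosen by their titles: 3 arrays of T+lowBPA and 3 of T+highBPA against 4 of control, which is 10 of the 14 arrays of the series. All animals were male rats of the Noble strain, 48 weeks old per the labels. T+lowBPA rats carried capsules with 30 mg testosterone and 15 mg BPA, and T+highBPA rats carried capsules with 30 mg testosterone and 320 mg BPA, for 32 weeks. A further 4 rats carried 30 mg testosterone with 15 mg estradiol (T+E2) for the same time, and control rats carried empty capsules. Testosterone was thus in both BPA groups and in T+E2 but not in control. Rats with testosterone as the sole compound are not analysed here, so in any difference from control BPA and testosterone cannot be told apart. Each sample is 1 rat per the labels, and p-values here reflect rat-to-rat spread.

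BPA is a building block of polycarbonate plastics and epoxy resins that binds estrogen receptors weakly. The lateral prostate is a lobe of secretory luminal epithelium over basal cells and a sheath of smooth muscle, and Noble rats given testosterone with estrogen are known to form precancerous lesions in the dorsal and lateral lobes. Androgens keep the luminal cells secreting, and estrogen acts in this lobe through its receptors and through prolactin from the pituitary.

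Values are log2 intensities of Affymetrix probe sets made by the authors with RMA, 1 array per rat, so a difference of 1 is a doubling of the signal. Array medians ran from 6.38 to 6.46, and 16134 genes carried 1 symbol. Secretory genes of the male accessory glands were near the top of the scale: Pbsn, the androgen-dependent probasin, ran from 12.69 to 13.07 in BPA and from 12.12 to 12.74 in control, and Semg1, a gel-forming seminal protein, from 12.90 to 13.30 in BPA and from 12.51 to 12.99 in control. Neither marks the lateral lobe alone, since Pbsn is also in the ventral lobe list used here and Semg1 in the seminal vesicle list, so the lobe named in the labels was not checked by them. The mean of 13 luminal epithelium markers ran from 8.36 to 8.80 in BPA and from 8.36 to 8.68 in control. Marker levels of neighbouring tissues varied between rats. The mean of 10 ventral lobe secretory genes ran between 7.15 and 7.30 in T+lowBPA and between 9.11 and 10.97 in T+highBPA, against 6.02 to 6.36 in control replicates 1 to 3 and 10.86 in control replicate 4. Control replicate 4 stood apart from its group, with a mean correlation across genes of 0.961 with the other controls, and its nearest array was T+highBPA replicate 2 (0.985). The mean of 22 skeletal muscle markers ran from 5.99 to 9.26 in BPA and from 6.63 to 9.09 in control. In such bulk tissue, fewer cells of a type and less RNA per cell cannot be told apart.

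Against control, 13 of 16134 genes passed an adjusted p of 0.05 in limma (0.0806%), of which 9 were higher (0.0558%) and 4 lower (0.0248%) in BPA. The higher genes included 3 enzymes of glycerolipid and phosphoinositide metabolism, Gpat4, Gk5 and Pi4k2b, and Ugt2b10, a glucuronosyltransferase. The lower genes were the transcription factor Gata3, the glypican Gpc3, the serpin Serpinb11 and Fcgbpl1, a relative of a mucus protein. At an unadjusted p below 0.05, 583 genes were higher and 426 lower. The median difference over all genes was 0.00, and 51.4% of them were above 0. The 6 BPA arrays lay wholly above the 4 control arrays for 136 genes (0.843%) and wholly below them for 77 (0.477%). Against the same controls, 3 genes were called with T+lowBPA taken singly (0.0186%) and 1 with T+highBPA (0.0062%).

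**Figure D1:**
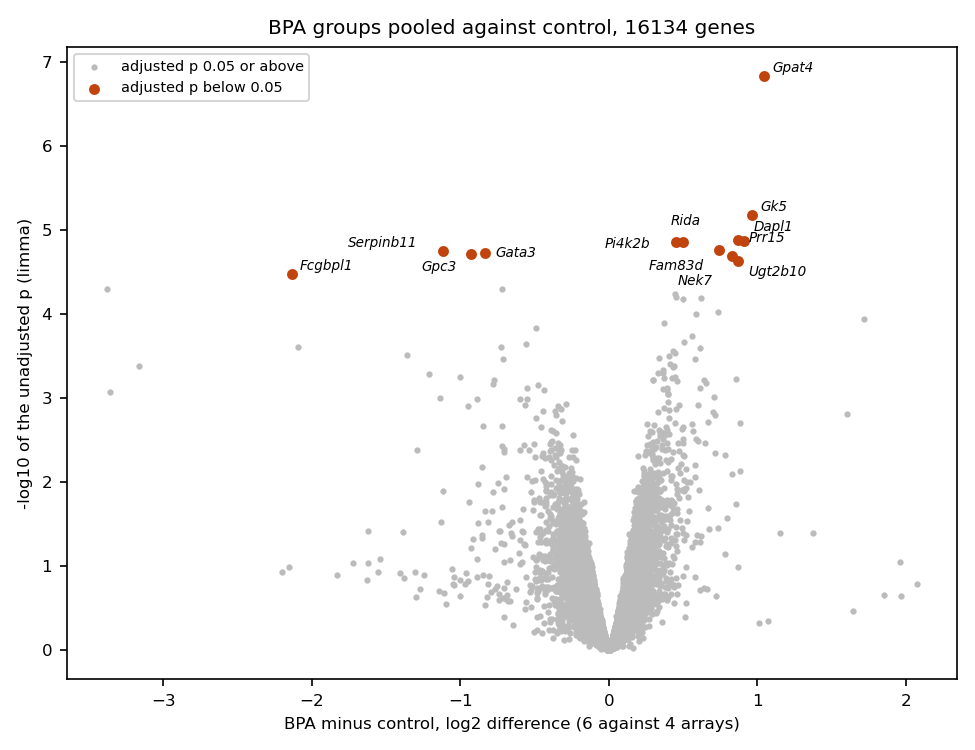
Difference between BPA (6 arrays) and control (4 arrays) on the log2 scale (x axis) against -log10 of limma's unadjusted p (y axis), 1 point per gene for 16134 genes, with the 13 genes at an adjusted p below 0.05 filled and named. Gpat4 stands highest, with a difference of 1.05, and the 4 lower genes run from -0.83 (Gata3) to -2.14 (Fcgbpl1).

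The 13 calls were not equally firm. Gpat4 was called in each of 27 other settings of the fit, with adjusted p between 0.000201 and 0.0228. It was the only gene still called without control replicate 2, and likewise without any one of T+highBPA replicates 1 and 3 and T+lowBPA replicates 2 and 3. Without T+lowBPA replicate 1 the count was 2, without control replicate 1 or T+highBPA replicate 2 it was 3, and without T+E2 replicate 1 or 3 it was 8. Leaving out control replicate 4 instead gave 38 called genes, of which 12 were among the 13, the exception being Fcgbpl1. Without control replicate 3, Dapl1, Nek7, Rida, Pi4k2b, Serpinb11, Gpc3 and Gata3 were no longer called. Each of the 13 genes kept its direction in every setting that tested it.

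Glycerolipid synthesis begins with the transfer of a fatty acid to glycerol 3-phosphate, and Gpat4 encodes an acyltransferase of the endoplasmic reticulum that does this. Gpat4 was at 9.02, 8.88 and 9.11 in T+lowBPA and at 9.11, 9.19 and 9.12 in T+highBPA, against 7.82, 7.95, 8.11 and 8.22 in control. Every BPA array lay above every control array, and the arrays of both doses formed a narrow band. Gpat4 rose 2.07-fold, a difference of 1.05 ± 0.11 (SE, n = 6 and 4, limma adjusted p = 0.00234). In T+E2 it was at 7.60, 7.71, 7.95 and 8.14, which is within or below the control range, and BPA exceeded T+E2 by 1.22 (limma adjusted p = 1.07e-05).

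Gk5 encodes a member of the glycerol kinase family, whose classic members make glycerol 3-phosphate. It was at 9.75, 10.01 and 9.85 in T+lowBPA and at 9.56, 9.05 and 9.74 in T+highBPA, against 8.59, 8.80, 8.94 and 8.47 in control. The groups did not overlap, and the lowest BPA array was T+highBPA replicate 2. Gk5 rose 1.95-fold (difference 0.96 ± 0.14, SE, limma adjusted p = 0.0299). Pi4k2b, a kinase that makes phosphatidylinositol 4-phosphate on membranes, was at 9.76, 9.74 and 9.80 in T+lowBPA and at 9.55, 9.38 and 9.45 in T+highBPA, against 9.22, 9.01, 9.17 and 9.25 in control. It rose 1.37-fold (difference 0.45 ± 0.07, SE, limma adjusted p = 0.0299), with the T+highBPA arrays between T+lowBPA and control. The adjusted p of these calls reached 0.106 for Gk5 and 0.138 for Pi4k2b when single arrays were left out. With the 6 BPA arrays fitted as 1 group, which adds the dose difference to the spread, 15 genes were called, and Pi4k2b was the 1 of the 13 that was lost.

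These were 3 of 36 measured genes in a list of glycerolipid and phosphoinositide enzymes, and 0 of that list were called lower. Over all genes, 0.0558% were called higher and 0.0248% lower. The list was chosen with earlier results of these data known, so its count is not a test of the pathway. The median difference of the list was 0.06, against 0.00 over all genes, and 25 of the 36 were above 0. The list's mean level ran from 7.35 to 7.42 in the BPA arrays, from 7.11 to 7.24 in T+E2 and from 7.17 to 7.31 in control. Next by p came Lipe, the hormone-sensitive lipase that breaks down stored triglyceride, at 7.06 ± 0.14 in BPA and 6.84 ± 0.17 in control (SD, limma adjusted p = 0.726). Neighbouring lipid lists held 0 called genes. Of 25 genes of cholesterol and fatty acid synthesis, 9 were above 0, with a median of -0.05, and without control replicate 4 it was 20, with a median of 0.14. With the mean of ventral lobe secretory genes as a covariate it was 3, with a median of -0.28, so the direction of this list depended on the setting. Of 27 genes of fatty acid oxidation and PPARA, 18 were above 0, with a median of 0.07. Among them Cpt1a, the carnitine transferase that admits fatty acids to mitochondria, had a difference of 0.31 (limma adjusted p = 0.726). Cpt1a ran from 8.33 to 8.46 in T+lowBPA, within the control range of 7.99 to 8.76, and from 8.68 to 8.99 in T+highBPA. Plin2 of this list went the other way, with a median of 8.71 in BPA and 8.97 in control.

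Ugt2b10 belongs to the UGT2B family, which couples steroids and foreign compounds to glucuronic acid. It was at 7.18, 6.76 and 6.70 in T+lowBPA and at 6.71, 6.504 and 6.54 in T+highBPA, against 6.07, 5.49, 6.12 and 5.76 in control. The groups did not overlap, and Ugt2b10 rose 1.83-fold (difference 0.87 ± 0.14, SE, limma adjusted p = 0.0316). In T+E2 it was at 4.37, 4.45, 4.23 and 3.95, below every control array, so BPA lay above control and T+E2 below it. BPA exceeded T+E2 by 2.48 (limma adjusted p = 1.5e-07), and T+E2 was lower than control by 1.61 (3.26e-05). It was the 1 called gene of 25 in steroid synthesis and inactivation, whose median was 0.00 and of which 12 were above 0. Among 33 genes of xenobiotic oxidation and conjugation 0 were called. There Ugt1a1, the bilirubin glucuronosyltransferase, was at 8.50 ± 0.52 in BPA, 10.04 in T+E2 on average and 9.25 ± 0.30 in control (SD), and its difference from control of -0.74 did not pass (limma adjusted p = 0.596).

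The other 5 higher genes were Dapl1, Prr15, Nek7, Fam83d and Rida. Dapl1, a gene known from differentiating epithelia, ran from 8.69 to 9.18 in BPA with a median of 8.79, against 7.80, 7.84, 7.996 and 8.08 in control, a rise of 1.88-fold. Prr15, a small proline-rich protein, ran from 8.88 to 9.59 with a median of 9.15, against 8.35, 8.33, 8.56 and 7.96 in control, a rise of 1.83-fold. For both, T+highBPA replicate 3 was the highest array and no BPA array reached down to the controls. Nek7, a kinase needed for the NLRP3 inflammasome and for mitosis, ran from 9.99 to 10.14 with a median of 10.04, against 8.84, 9.42, 9.13 and 9.50 in control, a rise of 1.78-fold. Fam83d, a protein of the mitotic spindle, ran from 8.19 to 8.71 with a median of 8.48, against 7.57, 7.85, 7.94 and 7.42 in control, a rise of 1.67-fold. Rida, an enzyme that hydrolyses reactive imines, ran from 9.90 to 10.20 with a median of 9.98, against 9.62, 9.43, 9.57 and 9.38 in control, a rise of 1.42-fold. In Nek7 the BPA arrays spread less than the controls, with an SD of 0.06 in BPA and 0.30 in control. The limma adjusted p was 0.0299 for each of these 5 genes.

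Among the lower genes, Fcgbpl1 is named for its likeness to Fcgbp, a large protein of mucus. It was at 7.001, 7.78 and 8.06 in T+lowBPA and at 7.58, 7.21 and 8.07 in T+highBPA, against 9.77, 9.996, 8.91 and 10.34 in control. Fcgbpl1 fell by 2.14 ± 0.36 on the log2 scale (SE, limma adjusted p = 0.0409), to a level 4.40-fold below control. In T+E2 it was at 8.87 and 9.33 in replicates 1 and 4 and at 7.41 and 8.09 in replicates 2 and 3, so that group spanned the BPA and control levels.

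The same uneven T+E2 arrays appeared in 3 genes that were not called. Fam115e ran from 4.47 to 6.15 in BPA, was at 8.19, 5.90, 6.04 and 8.89 in T+E2, and ran from 7.49 to 9.52 in control (difference -3.38 ± 0.59, SE, limma adjusted p = 0.0539). Gsdma, a gasdermin that forms pores in membranes, ran from 5.04 to 5.997 in BPA, was at 6.63, 5.08, 5.61 and 6.85 in T+E2, and ran from 6.45 to 8.55 in control (-2.10 ± 0.43, SE, 0.136). Tgm4, the prostate transglutaminase that clots semen, ran from 6.84 to 10.26 in BPA, was at 11.34, 8.63, 8.32 and 11.96 in T+E2, and ran from 11.17 to 12.18 in control (-3.36 ± 0.80, SE, 0.209). In each of these genes the BPA and control arrays did not overlap, and T+E2 replicates 1 and 4 were above replicates 2 and 3. The SD of Tgm4 was 1.46 in BPA and 0.46 in control.

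Gata3 encodes a zinc-finger transcription factor of luminal breast epithelium, urothelium and T cells. It was at 6.77, 7.15 and 7.16 in T+lowBPA and at 6.71, 6.62 and 6.87 in T+highBPA, against 7.36, 7.96, 7.55 and 7.97 in control. Gata3 fell by 0.83 ± 0.13 on the log2 scale (SE, limma adjusted p = 0.0299). T+E2 lay at 8.22, 7.86, 8.11 and 8.20, and BPA was below it by 1.22 (limma adjusted p = 4.71e-05). Gata3 was the 1 called gene of 28 in the estrogen-responsive list, whose median was -0.01 with 14 above 0, and of 12 urothelium markers, whose median was -0.06 with 5 above 0. Next in that marker list, Upk1b, a uroplakin of the urothelial plaque, was at 5.84 ± 0.35 in BPA and 7.13 ± 1.13 in control (SD, limma adjusted p = 0.418).

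Gpc3, a cell-surface heparan sulfate proteoglycan, was at 6.66, 6.08 and 6.16 in T+lowBPA and at 6.65, 6.70 and 6.46 in T+highBPA, against 7.59, 7.33, 7.51 and 7.09 in control. It fell by 0.93 ± 0.15 on the log2 scale (SE, limma adjusted p = 0.0299). T+E2 was at 6.84, 6.15, 6.52 and 6.34, of which replicate 1 was above the highest BPA array and the others were within the BPA range, and BPA and T+E2 differed by -0.01 (limma adjusted p = 0.985). Serpinb11, a serpin of the clade that acts inside cells, ran from 4.46 to 5.001 in BPA with a median of 4.67, against 5.11, 6.08, 6.02 and 6.03 in control. Control replicate 1 was just above the highest BPA array, while the other 3 controls lay well above it. Serpinb11 fell by 1.11 ± 0.18 on the log2 scale (SE, limma adjusted p = 0.0299). It is a dim gene: all these values were below the array medians of 6.38 to 6.46. The fit without the dimmest 25 percent of genes did not test it.

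**Figure D2:**
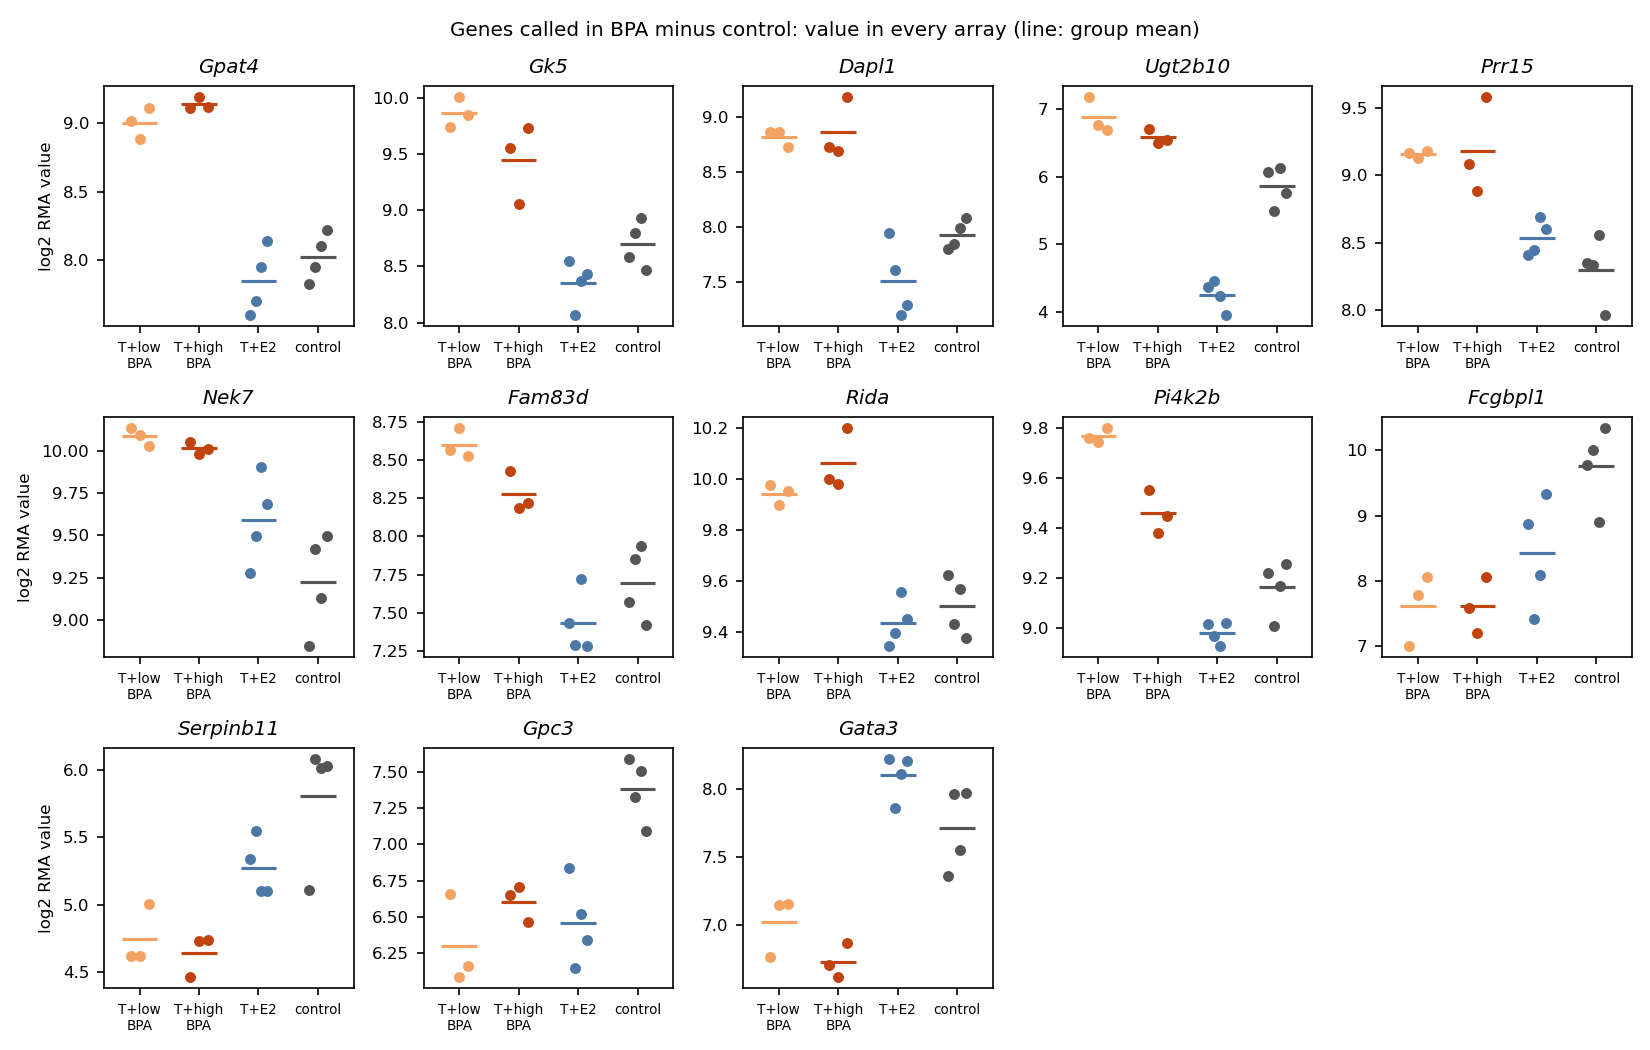
Log2 RMA value (y axis) of each of the 13 called genes in every array, 1 panel per gene, with T+lowBPA (n = 3), T+highBPA (n = 3), T+E2 (n = 4) and control (n = 4) from left to right and a line at each group's mean. No panel has a BPA array that reaches the control range, and in Ugt2b10 the T+E2 arrays, at 3.95 to 4.45, lie below the controls.

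Outside the called genes, each direction was filled to 10 named genes by the smallest p within that direction. These are thus not the smallest p over both directions, and of them Herc4 and Ctse were close to the threshold. Herc4, a ubiquitin ligase, was at 10.31 ± 0.06 in BPA and 9.87 ± 0.13 in control (SD, limma adjusted p = 0.0552). Ctse, the aspartic protease cathepsin E, was at 7.33 ± 0.10 in BPA and 8.05 ± 0.27 in control (0.0539), and Pde1c, which breaks down cyclic nucleotides, at 5.05 ± 0.15 in BPA and 5.54 ± 0.11 in control (0.0978). Abcg4, a sterol transporter, and Adh7, an alcohol dehydrogenase that acts on retinol, had differences of -0.56 and -0.72 (0.135 and 0.136), and the Abcg4 arrays of both groups overlapped. T+E2 was called lower than control in Abcg4 and Adh7, with differences of -0.54 and -0.71 (limma adjusted p = 0.0289 and 0.0297). Pcdh20, a protocadherin, ran from 8.99 to 10.01 in BPA, against 7.24, 7.35, 7.28 and 9.04 in control (difference 1.72, limma adjusted p = 0.0828). Its control replicate 4 lay within the BPA range, and without that array the difference was 2.16 with an adjusted p of 0.00109.

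Both doses were then compared with each other, to see whether the shared differences depended on the amount of BPA. Of 16134 genes, 0 were called between T+highBPA and T+lowBPA (0%) by limma, with 2252 at an unadjusted p below 0.05 and a smallest adjusted p of 0.206. A count of 0 with 3 rats per dose does not show that the doses acted alike, and with the skeletal muscle mean as a covariate the count was 61. Against the shared controls, Gpat4 was higher by 1.12 in T+highBPA and 0.98 in T+lowBPA, Dapl1 by 0.93 and 0.88, and Prr15 by 0.89 and 0.86. Gk5 was higher by 0.75 in T+highBPA and 1.17 in T+lowBPA, Fam83d by 0.58 and 0.90, and Pi4k2b by 0.30 and 0.60. Of the 13 called genes, these last 3 had an unadjusted p below 0.05 between doses, with T+highBPA the lower, and the smallest adjusted p of the 13 was 0.255.

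The intervals of the dose difference show what remained possible. For Gpat4, T+highBPA minus T+lowBPA was 0.14 (95% interval -0.16 to 0.43). For Pi4k2b it was -0.31 (-0.50 to -0.12) and for Gk5 -0.42 (-0.80 to -0.04). For Fcgbpl1 it was 0.01 (-0.96 to 0.98), an interval wide enough to hold a difference of nearly 1 in either direction. For Gata3 it was -0.29 (-0.65 to 0.07) and for Gpc3 0.31 (-0.10 to 0.71). In each of the 13 genes the 95% interval excluded 0 for each dose against control, which the choice of genes on the mean of both doses favours.

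**Figure D3:**
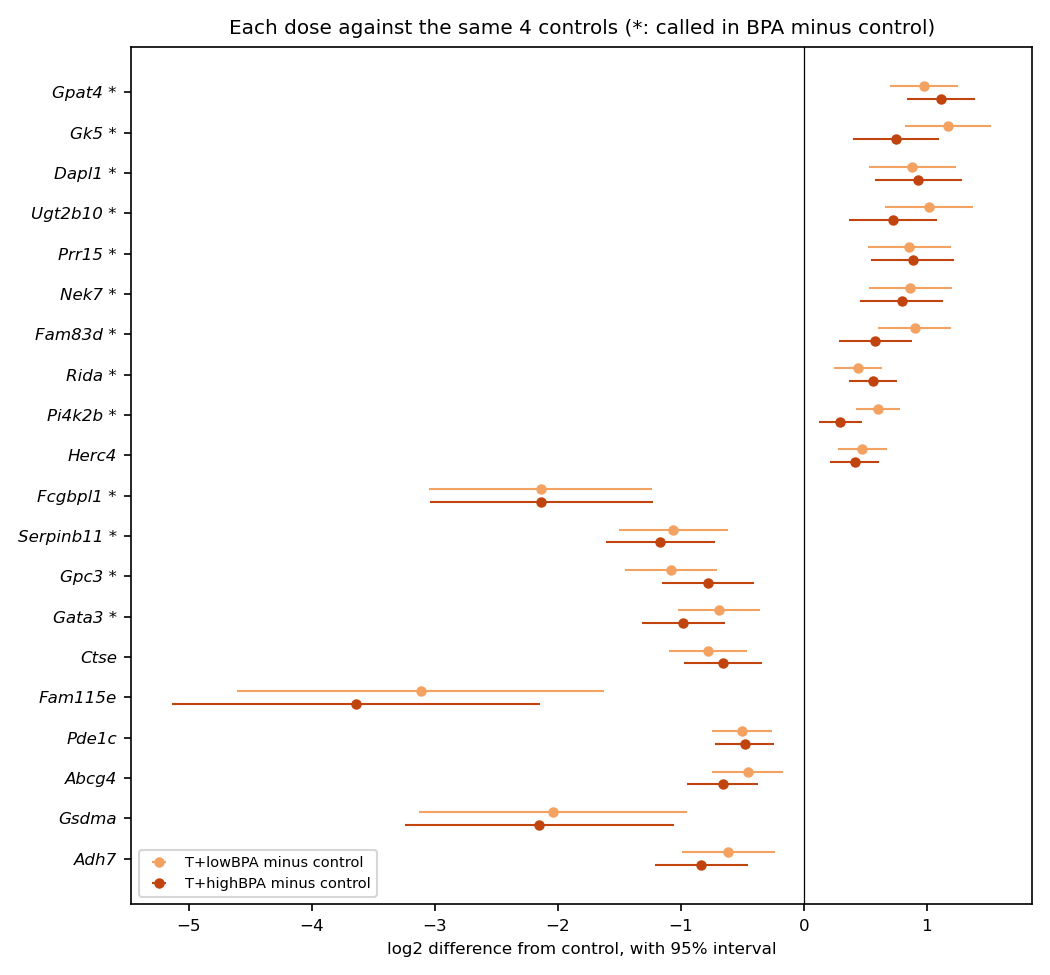
Log2 difference from the same 4 controls with its 95% interval (x axis) for T+lowBPA and T+highBPA (3 arrays each). Drawn are the 13 called genes (starred) and the 7 genes that fill each direction to 10 by smallest p in that direction. Both doses lie on the same side of 0 for each of these genes, and the dose difference among called genes is at most 0.42, in Gk5.

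Because T+E2 rats also received testosterone, the BPA groups were set against T+E2. The test called 1354 of 16134 genes (8.39%), with 833 higher (5.16%) and 521 lower (3.23%) in BPA. With cyclic loess normalization 1168 were called, 589 higher and 579 lower, so that 50.4% were higher in place of 61.5%. Each of the 9 genes higher in BPA than in control was also called higher in BPA than in T+E2, by 0.46 (Nek7, limma adjusted p = 0.0463) to 2.48 (Ugt2b10), and all 6 BPA arrays lay above all 4 T+E2 arrays in each. Of the 4 lower genes, Gata3 alone was called lower than in T+E2, while Serpinb11 differed by -0.58 (0.0585), Fcgbpl1 by -0.81 (0.192) and Gpc3 by -0.01 (0.985). The BPA arrays enter both comparisons, so these calls are not independent of each other. Choosing the 9 genes for high BPA values also favours non-overlap with T+E2, and its share over all genes was not counted. Against control, T+E2 itself had 521 called genes (3.23%), 284 higher (1.76%) and 237 lower (1.47%), among them Ugt2b10 and Gpc3 (-0.92, limma adjusted p = 0.00562) of the 13.

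No estrogen or prolactin receptor gene was called between BPA and control. Esr1, estrogen receptor alpha, was at 6.23 ± 0.09 in BPA and 6.22 ± 0.09 in control (SD, limma adjusted p = 0.997). Esr2, estrogen receptor beta, ran from 9.55 to 10.11 in BPA, from 8.24 to 8.99 in T+E2 and from 8.86 to 9.98 in control. Its difference of 0.48 from control did not pass (0.726), while its difference of 1.06 from T+E2 did (0.00377), with no overlap of arrays. Prlr, the prolactin receptor, was at 8.87 ± 0.72 in BPA, 9.51 ± 0.67 in T+E2 and 8.23 ± 1.08 in control (SD, limma adjusted p against control 0.944), with control replicate 4 at 9.84 and T+highBPA replicate 2 at 10.28. Of 28 nuclear and steroid receptors 0 were called and 10 were above 0, with a median of -0.11. The one with the smallest p was Nr2f1, an orphan receptor (-0.30, limma adjusted p = 0.58).

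Hnf4a, a nuclear receptor of liver and gut epithelium, was at 5.83 ± 0.19 in BPA, 5.72 ± 0.10 in T+E2 and 5.76 ± 0.49 in control (SD, limma adjusted p against control 0.995). Of 35 genes in a list of HNF4A, HNF1 and liver-type targets 0 were called and 19 were above 0, with a median of 0.00. Of 25 androgen-responsive prostate genes 0 were called and 17 were above 0, with a median of 0.17, and the medians were 0.22 for T+highBPA and 0.03 for T+lowBPA. Without control replicate 4, 1 of the 25 was called higher, and without the 3 arrays highest in ventral lobe genes 6 were. The lists share members such as Pbsn and Scgb2a1. The 10 ventral lobe secretory genes, of which 0 were called, had a median of 1.51, which was 3.05 for T+highBPA and -0.02 for T+lowBPA. Without control replicate 4 their median was 2.82 with 1 called higher, beside 23 of 16134 over all genes. Without the 3 arrays highest in these genes (T+highBPA replicate 2, T+E2 replicate 2 and control replicate 4) it was 2.66 with 7 called higher, beside 44 of 16134. Those arrays were left out for their level of these same genes, some of them in both lists. The counts without them are thus no test of either list. Sbp, a spermine-binding secretory protein, had a range of 8.63 to 13.25 in BPA and of 6.69 to 13.12 in control, where replicate 4 was the highest. With the mean of the ventral lobe genes as a covariate, 98 genes were called, and all 13 were among them.

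No basal, luminal or smooth muscle marker was called between BPA and control. All 16 measured basal epithelium markers were below control, with a median of -0.13, and 0 were called, with 6 lower at an unadjusted p below 0.05. Without control replicate 4 the median was -0.23, with 15 of the 16 below control. Their mean level ran from 6.52 to 6.68 in BPA, from 6.58 to 6.61 in T+E2 and from 6.64 to 6.98 in control, so the lowest control, replicate 4, overlapped the BPA arrays. Tp63, the master regulator of basal cells, was at 7.19 ± 0.22 in BPA, 6.97 in T+E2 on average and 7.62 ± 0.27 in control (SD, limma adjusted p = 0.439). Dsc3, a desmosomal cadherin, and Itgb4, the hemidesmosome integrin, had differences of -0.36 and -0.34 (0.284 and 0.41). Of 13 luminal markers 8 were above 0, with a median of 0.09, which was 0.23 for T+highBPA and -0.12 for T+lowBPA. Only 5 of the 13 had the same sign in both doses. Prom1, a membrane protein of luminal and progenitor cells, was at 11.41 ± 0.09 in BPA and 11.02 ± 0.22 in control (SD, limma adjusted p = 0.248). Krt19 of the same list went the other way, with a median of 8.80 in BPA and 9.20 in control.

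Of 18 smooth muscle markers 16 were below control, with a median of -0.19 and 0 called. Synpo2, an actin-bundling protein, was at 7.62 ± 0.19 in BPA and 8.12 ± 0.34 in control (SD, limma adjusted p = 0.41), and Myh11, the smooth muscle myosin, at 10.53 ± 0.17 in BPA and 10.91 ± 0.29 in control (0.726). Of 22 skeletal muscle markers 21 were below control and 0 were called, with a median of -0.95, which was -1.29 for T+highBPA and -0.58 for T+lowBPA. Both muscle lists and the basal list thus lay below control, and with the skeletal muscle mean as a covariate the medians were -0.14 for smooth muscle and -0.15 for basal markers. In that fit 6 genes were called, 5 of them among the 13. The part of muscle content in the other calls was not tested.

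Of 24 fibroblast and matrix markers 22 were above 0, with a median of 0.15, and the 1 called, Gpc3, was lower. Without control replicate 4 the count above 0 was 12 and the median -0.01. Of 13 endothelium markers 12 were above 0, with a median of 0.21 and 0 called, and without control replicate 4 the median was 0.06. The medians were -0.02 for 13 adipocyte markers and -0.07 for 14 neuroendocrine and nerve markers, with 0 called in each. Of 6 seminal vesicle markers 0 were called, with a median of 0.10, which was -0.07 for T+highBPA and 0.29 for T+lowBPA. Svs4, a seminal vesicle secretory protein, was at 12.33 ± 0.16 in BPA and 11.90 ± 0.33 in control (SD, limma adjusted p = 0.571).

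Immune and stress lists held 0 called genes in BPA against control. Of 30 interferon-stimulated genes 26 were above 0, with a median of 0.19, which was 0.32 for T+highBPA and 0.07 for T+lowBPA. Isg15, a ubiquitin-like interferon product, ran from 6.22 to 7.91 in BPA and from 6.24 to 6.63 in control (difference 0.52, limma adjusted p = 0.596). The medians were 0.08 for 21 macrophage and myeloid markers, -0.03 for 21 T and NK cell markers, -0.08 for 18 B and plasma cell markers and -0.02 for 23 antigen presentation genes. Without control replicate 4 the medians were -0.11 for macrophage, -0.10 for T and NK cell and -0.15 for B and plasma cell markers and -0.18 for antigen presentation, where 4 of 23 were above 0. With the ventral lobe mean as a covariate all 4 were above 0, at 0.25, 0.06, 0.04 and 0.08. Against T+E2, all 21 T and NK cell markers had a difference below 0, with a median of -0.15 and 0 called.

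Of 32 genes of ER stress and protein secretion 27 were above 0, with a median of 0.10. Against T+E2, 12 of them were called higher and 2 lower in BPA, beside 5.16% higher and 3.23% lower over all genes, with a median of 0.31, and Derl3, a component of endoplasmic reticulum degradation, was higher by 1.21 (limma adjusted p = 0.000893). Of 33 oxidative phosphorylation genes 28 were above 0, with a median of 0.05, which was 0.19 for T+highBPA and -0.09 for T+lowBPA, and 0.13 without control replicate 4. Ndufa1, a complex I subunit, was at 10.69 ± 0.37 in BPA, 11.43 in T+E2 on average and 10.19 ± 0.07 in control (SD, limma adjusted p against control 0.596). Its T+E2 level is not that of the list: 31 of the 33 genes were higher in BPA than in T+E2, with a median of 0.21, and Ndufa1 was 1 of 2 exceptions. The medians were -0.02 for 21 NRF2 and glutathione genes and 0.06 for 24 immediate early genes. Of 26 cell cycle genes 11 were above 0, with a median of -0.01, and Mki67, the proliferation marker, was at 6.85 ± 0.36 in BPA and 6.91 ± 0.81 in control (SD, 0.997).

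Of 21 goblet and mucus genes 15 were below control, with a median of -0.03 and 0 called, and against T+E2 6 were called lower in BPA, beside 3.23% over all genes. Clca1, a secreted protein of goblet cells, ran from 5.46 to 8.01 in BPA and from 5.65 to 10.85 in control (difference -1.62, limma adjusted p = 0.761), and BPA was below T+E2 by 6.59 (4.71e-05). Muc13, a membrane mucin, was at 6.35 ± 0.53 in BPA and 7.48 ± 1.35 in control (SD, 0.726). The control spread was wider than that of BPA in both genes. Under cyclic loess, quantile normalization and centring on the array median, the list medians against control kept their sign except for the estrogen-responsive and steroid lists, both near 0, which were above 0 after centring. Without control replicate 4, medians moved by over 1.5 times to 0.13 for fatty acid oxidation, 0.16 for luminal, 0.03 for seminal vesicle, -0.10 for cell cycle, -0.07 for goblet, -0.04 for neuroendocrine and nerve, -0.03 for urothelium and -0.04 for xenobiotic genes. Those of the NRF2 and glutathione, HNF4A and estrogen-responsive lists, all near 0, changed sign, to 0.01, -0.03 and 0.01.

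**Figure D4:**
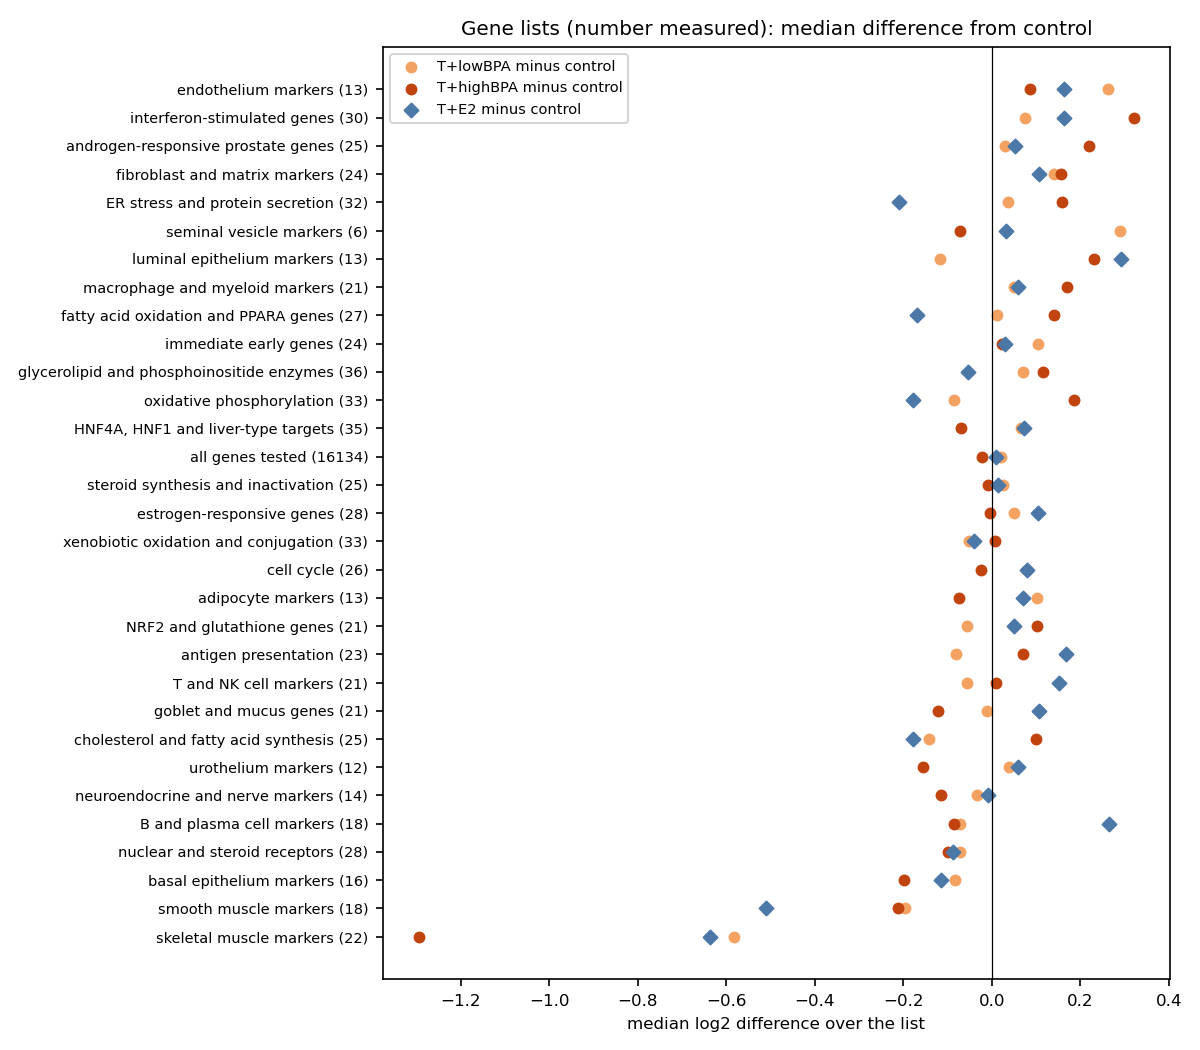
Median log2 difference from control (x axis) over the genes of each list, with the number measured in brackets, for T+lowBPA, T+highBPA and T+E2 against the same 4 controls. The ventral lobe list is not drawn, since its T+highBPA median of 3.05 is off the scale. The skeletal muscle list lies lowest, at -1.29 in T+highBPA, and some dots lie under others.

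The proximal promoters of the called genes were read to show the sequence around the starts of genes that differed together. RefSeq promoter windows on assembly GRCr8, from 250 bases before to 50 bases after the gene's start, matched 11 of the 13, all but Gpat4 and Rida. Sites were searched on both strands by letters: the estrogen half-site GGTCA, the androgen half-site AGAACA, an HNF4 core CAAAGTCCA and an SREBP site TCACNCCAC. Of 27457 rat promoter windows, 40.2% held the estrogen half-site, as did 3 of the 11 (Fcgbpl1, Gata3 and Gpc3), and 20.1% held the androgen half-site, as did 2 (Dapl1 and Ugt2b10). The HNF4 core was in 0.375% of windows and the SREBP site in 1.13%, and 0 of the 11 held either. Shown are the lower gene Gata3 (chr17:73553298-73553597, plus strand) with its estrogen half-site in capitals, and Ugt2b10 (chr14:21462591-21462890, plus strand). The androgen half-site of Ugt2b10 is in capitals as TGTTCT on the strand read. Also shown are 2 genes of the glycerolipid and phosphoinositide list with none of these sites, Gk5 (chr8:105561768-105562067, plus strand) and Pi4k2b (chr14:62461397-62461696, minus strand). A match describes the letters and not a bound site.
Gata3: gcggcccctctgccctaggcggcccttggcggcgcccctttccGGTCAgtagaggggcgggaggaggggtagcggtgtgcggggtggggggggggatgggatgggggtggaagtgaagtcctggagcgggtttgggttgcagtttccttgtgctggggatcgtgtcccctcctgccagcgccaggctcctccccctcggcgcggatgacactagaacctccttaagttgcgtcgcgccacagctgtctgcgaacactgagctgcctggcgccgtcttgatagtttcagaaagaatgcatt
Ugt2b10: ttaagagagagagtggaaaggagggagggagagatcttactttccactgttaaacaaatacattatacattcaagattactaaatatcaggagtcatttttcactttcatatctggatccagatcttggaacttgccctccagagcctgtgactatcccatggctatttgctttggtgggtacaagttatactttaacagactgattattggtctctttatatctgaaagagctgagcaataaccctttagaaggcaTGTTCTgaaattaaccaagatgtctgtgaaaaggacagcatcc
Gk5: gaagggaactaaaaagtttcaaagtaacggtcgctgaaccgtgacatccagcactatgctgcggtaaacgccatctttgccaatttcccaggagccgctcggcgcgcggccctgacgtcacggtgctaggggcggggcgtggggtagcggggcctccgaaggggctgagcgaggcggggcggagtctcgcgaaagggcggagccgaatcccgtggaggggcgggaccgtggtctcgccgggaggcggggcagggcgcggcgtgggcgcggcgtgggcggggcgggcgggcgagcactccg
Pi4k2b: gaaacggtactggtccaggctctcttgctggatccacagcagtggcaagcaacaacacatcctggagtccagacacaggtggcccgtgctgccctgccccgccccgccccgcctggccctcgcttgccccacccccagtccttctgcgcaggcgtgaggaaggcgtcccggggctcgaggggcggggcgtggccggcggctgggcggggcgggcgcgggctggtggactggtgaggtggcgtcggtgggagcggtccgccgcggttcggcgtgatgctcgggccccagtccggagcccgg

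**Figure D5:**
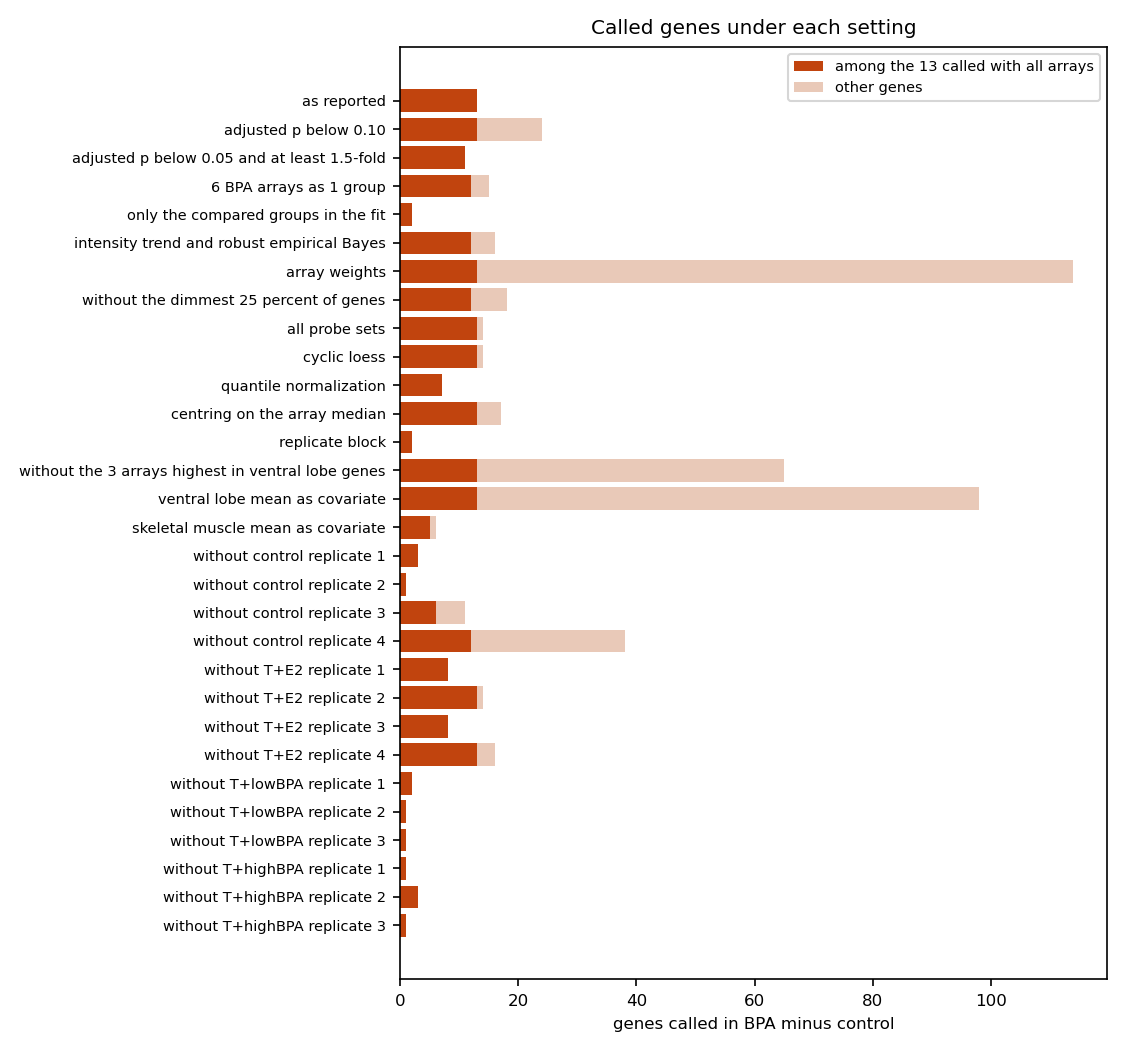
Number of genes called in BPA minus control (x axis) under each setting of the fit (rows), divided into genes among the 13 called with all arrays and other genes. The count runs from 1, when 1 of several single arrays is left out, to 114 with array weights.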

How the data were processed

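Gene expression was measured in RNA of 14 rat lateral prostates on Affymetrix arrays, 1 array per rat. Per the submitters' processing notes, the authors used RMA, and the values they deposited are log2 intensities. The sources used here do not give the RMA version, the build or how probe sets were defined. RMA corrects background and normalizes between arrays, so overall brightness had been evened out before deposit. Arrays carry no read depth, and their number limits the precision. Of 17802 probe sets, 16134 had 1 gene symbol in the platform annotation, 0 had several and 1668 had none. Through the gene number 15977 matched the RefSeq gene table of GRCr8, which updated 3107 symbols.

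The fit used limma 3.58.1 (lmFit, eBayes) under R 4.3.3, with 1 coefficient per group over all 14 arrays, 10 residual degrees of freedom and a prior worth 4.13. BPA is the mean of both dose coefficients. Genes were called at 0.05 on two-sided p-values that were adjusted by Benjamini-Hochberg across 16134 genes. No value was filtered out. The fit was tested on simulated data. Tables and figures were made with Python 3.11.15, pandas 2.3.3 and matplotlib 3.10.9.

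The members, the 31 gene lists (800 entries, 693 measured) and the naming rule were chosen with earlier results of these data known. The rule names up to 15 called genes per direction whose arrays do not overlap, filled to 10 by smallest p, and up to 4 members of smallest p per list. It also follows Gpat4, Gk5, Pi4k2b, Hnf4a, Esr1, Esr2, Prlr, Mki67, Pcdh20, Gpc3 and Tgm4, and 1 item that is not reported here. Genes named outside this rule, in the closing observations, were chosen after their values were seen. Alternatives were another threshold, a fold minimum, 1 BPA group, the compared groups alone, an intensity trend with robust fitting, array weights, all probe sets, a filter on dim genes, 3 normalizations, a replicate block, covariates for ventral lobe and skeletal muscle genes, and leaving arrays out.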

Additional observations from a re-analysis of the deposited data

Results flagged for a closer look

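In groups of 4 to 10 arrays, the highest or lowest array was set against its nearest neighbour for the named genes and the list means. A single array stood far from the rest of its group in 19 of 174 groups, where chance gives about 1 in 20. The values that follow are on the log2 scale. In the BPA arrays, T+highBPA replicate 3 was high in Dapl1 (9.18, others 8.69 to 8.86) and in Rida (10.20, others 9.90 to 10.001), both of them called genes. T+highBPA replicate 2 was low in Herc4 (10.20, others 10.31 to 10.36) and in the mean of the endothelium markers (6.81, others 7.04 to 7.15). It was high in Prlr (10.28, others 8.29 to 8.87) and in the mean of cholesterol and fatty acid synthesis (8.47, others 7.73 to 7.92). T+lowBPA replicate 2 was high in Esr1 (6.404, others 6.17 to 6.21) and in the mean of the immediate early genes (7.17, others 6.93 to 6.99).

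In T+E2, replicate 2 was high in the mean of the interferon-stimulated genes (7.19, others 6.95 to 6.99) and replicate 1 in that of the macrophage and myeloid markers (7.79, others 7.48 to 7.503). In control, replicate 4 was high in Prlr (9.84, others 7.55 to 7.87), in Pcdh20 (9.04, others 7.24 to 7.35) and in the means of the androgen-responsive genes (9.63, others 8.38 to 8.53) and the ventral lobe secretory genes (10.86, others 6.02 to 6.36). It was also high in the means of cholesterol and fatty acid synthesis (8.69, others 7.67 to 7.77) and the immediate early genes (6.99, others 6.92 to 6.93), and low in that of the adipocyte markers (6.16, others 6.35 to 6.38). Control replicate 1 was low in Serpinb11 (5.11, others 6.02 to 6.08), a called gene, and high in the mean of the neuroendocrine and nerve markers (5.98, others 5.79 to 5.81).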

How the results depend on the processing

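The 13 genes called between BPA and control became 24 at an adjusted p of 0.10, 2 with only the compared groups in the fit, 114 with array weights and 7 after quantile normalization. The count was 65 without the 3 arrays highest in ventral lobe genes (T+highBPA replicate 2, T+E2 replicate 2 and control replicate 4), 98 with the ventral lobe mean as covariate and 6 with the skeletal muscle mean as covariate. All 13 genes stayed among the 24, 114, 65 and 98. Leaving out 1 array gave 1 to 38: 3, 1 and 38 without control replicates 1, 2 and 4, 8 without T+E2 replicate 1 or 3, 2, 1 and 1 without T+lowBPA replicates 1, 2 and 3, and 1, 3 and 1 without T+highBPA replicates 1, 2 and 3. Without control replicate 3, Dapl1, Nek7, Rida, Pi4k2b, Serpinb11, Gpc3 and Gata3 were lost from the 13. Gpat4 was called in each of 27 settings, and each of the other 12 in 11 to 18. The 1354 genes called between BPA and T+E2 became 2103 at an adjusted p of 0.10 and 554 with at least 1.5-fold, and ran from 863 to 1982 over single arrays left out, with 863 without T+E2 replicate 2 and 885 without replicate 4. Between T+highBPA and T+lowBPA the count of 0 became 18 with only the compared groups, 2 with array weights, 6 without the 3 arrays and 61 with the muscle covariate, and was 0 to 1 over single arrays left out (1 without T+highBPA replicate 1 or 3). The cause of these changes was not tested. The labels tie no replicate number to a shared litter or day, and the numbers were not taken to pair the rats: of 19 pairs with the same number in different groups, 14 had deviations correlated above 0.1 and the others did not, with a range from -0.46 to 0.44. With the replicate number as a block, 2 genes were called between BPA and control (Gpat4 and Gpc3), 1636 between BPA and T+E2 and 0 between the doses. Of 1668 probe sets without a symbol, 1 was called higher and 0 lower in BPA than in control. The 4 controls, 1 of which stood apart, and 3 rats per dose limit what these arrays can show.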

Other observations

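Control replicate 4 held ventral lobe signal at the level of the T+highBPA arrays, and without it 26 further genes were called between BPA and control, 14 higher and 12 lower. They were chosen here after their values were seen. In each of the 26, the other 3 controls did not overlap the 6 BPA arrays, and in 13 of them control replicate 4 lay within the BPA range. Choosing the genes by their calls without that array favours both, and the share of all genes with such non-overlap was not counted. Among the lower genes, Itln1, an intelectin that binds microbial sugars, ran from 5.17 to 6.503 in BPA with a median of 5.70, against 10.48, 11.04, 7.02 and 7.13 in control, with an estimate without control replicate 4 of -3.76 ± 0.66 (SE, limma adjusted p = 0.0346). Cftr, the epithelial chloride channel, ran from 5.29 to 5.90 in BPA and from 6.89 to 7.34 in T+E2, against 6.51, 6.72, 6.42 and 5.71 in control (-0.99 ± 0.14, SE, 0.0176). Cxcl17, a mucosal chemokine, had an estimate of -1.17 (0.043), Slc34a2, a sodium-phosphate transporter, of -0.94 (0.0346), Msln, the surface protein mesothelin, of -0.81 (0.0176), and Cdh17, a cadherin of intestinal epithelium, of -1.19 (0.0461). In Itln1, control replicates 3 and 4 were close to each other and both above the BPA arrays, whereas in Cxcl17, Slc34a2, Msln and Cdh17 control replicate 4 lay below them.

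Among the higher genes, Scgb2a1, a secretoglobin, ran from 10.35 to 13.09 in BPA with a median of 11.48, against 8.94, 9.43, 9.66 and 12.83 in control, with an estimate without control replicate 4 of 2.25 ± 0.35 (SE, limma adjusted p = 0.0223). It is itself a member of the ventral lobe list. Cbr3, a carbonyl reductase, ran from 10.15 to 10.75 in BPA, against 8.70, 9.33, 9.40 and 10.55 in control (1.24 ± 0.21, SE, 0.0298). Amd1, an enzyme of polyamine synthesis, which is active in prostate, ran from 11.42 to 11.59 in BPA, against 10.90, 10.99, 10.84 and 11.43 in control (0.60, 0.0235). Acad11, an acyl-CoA dehydrogenase, had an estimate of 0.69 (0.0239) and Dusp1, a phosphatase of MAP kinases, of 0.48 (0.0235). The part of ventral lobe tissue in these estimates was not tested.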
